A study of Homo sapiens with 24 samples.

Results

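MECOM is the human gene for the zinc-finger transcription factor EVI1, and its transcripts were followed here in 2 acute myeloid leukaemia (AML) cell lines with and without decitabine. The members are all transcripts annotated to MECOM among the transcripts listed in the tables, which came to 18 of 204940 transcripts, and their sum, which is 1 of 52994 matched genes. The study cultured UCSD-AML1 and ELF-153 with or without 100 nM decitabine (DAC), a cytidine analogue that traps DNA methyltransferases and lowers DNA methylation, renewed with the medium on each of 4 days. RNA was taken at 96 h and at 144 h. The 8 groups were DAC-treated and untreated ELF-153 and DAC-treated and untreated UCSD-AML1 at each time, with 3 libraries per group and 24 in all. All groups, untreated cells included, grew in RPMI with 20% serum, penicillin/streptomycin and 5 ng/ml GM-CSF, a myeloid growth factor, and the labels name no vehicle for the untreated cells. The libraries of a group were technical triplicates of 1 cell line, so p-values measure only the spread between these libraries, and each line stands for itself alone.

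MECOM is read from a distal and from a proximal set of start sites. The proximal starts give EVI1, while the distal start can splice into the same exons and give MDS1-EVI1, a longer protein that carries an extra PR domain and places MECOM in the PRDM family of chromatin regulators. EVI1 is needed by blood stem cells, and its overexpression in myeloid leukaemia, often through chromosome 3 rearrangements that move an enhancer of GATA2 next to the gene, is linked to poor outcome; UCSD-AML1 is a model of that kind. EVI1 works largely as a repressor through CTBP1 and CTBP2, and it binds histone deacetylases, histone methyltransferases and DNA methyltransferases.

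In GENCODE 29 (build GRCh38), MECOM (ENSG00000085276.17) lies on the minus strand at chr3:169083499-169663618, a span of 580 kb. The annotation holds 19 transcripts, of which 18 were listed in the tables. The submitters' processing notes name hg19 and the tables hold no coordinates, so positions here come from matching transcript identifiers to GENCODE, and each is given as a distance from the most distal start. MECOM-213 (ENST00000485957), MECOM-217 (ENST00000494292) and MECOM-214 start within 0.2 kb of that point. MECOM-211 starts at 394.4 kb, between the sets. The proximal starts lie 515.9 to 517.3 kb downstream and belong to MECOM-206 (ENST00000464456), 208, 204, 210 and 6 others. Internal starts, 529.6 to 540.9 kb downstream, belong to MECOM-203 (ENST00000460814), 207, 205 and 216.

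Of the 18 listed transcripts, 8 had any read in the 24 libraries, and 10 were listed at 0 in all of them. Those with reads hold between 107 and 1012 bases that no other listed MECOM transcript contains, while those at 0 hold between 0 and 104. The rule for reads shared by several transcripts is not given, and values are read here as reads on unshared bases because the transcripts at 0 are those with the fewest. MECOM-217, the long distal form of 16 exons and 3939 bases, has 0 bases of its own, so on that reading its level was not measured. The same holds for MECOM-202, 209, 212, 215, 216 and 218, with 0 bases of their own, and MECOM-201 has only 8. The value of MECOM-206, a protein-coding transcript of 5732 bases, then comes from 1012 bases of its first exon. On that reading the MECOM sum in UCSD-AML1 is mostly reads of that exon. RNA of transcripts without unshared bases would show in it in neither line. MECOM-213 is a processed transcript of 895 bases and 3 exons with 422 unshared bases, 148 of them in the first exon at the distal start and 274 in exon 3, which ends the transcript at 514.1 kb. Of the genes overlapping MECOM (AC074033.1 on the opposite strand, RPL22P1 and AC007849.1 on the same strand), none lies over the exons that gave reads.

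**Figure D1:**
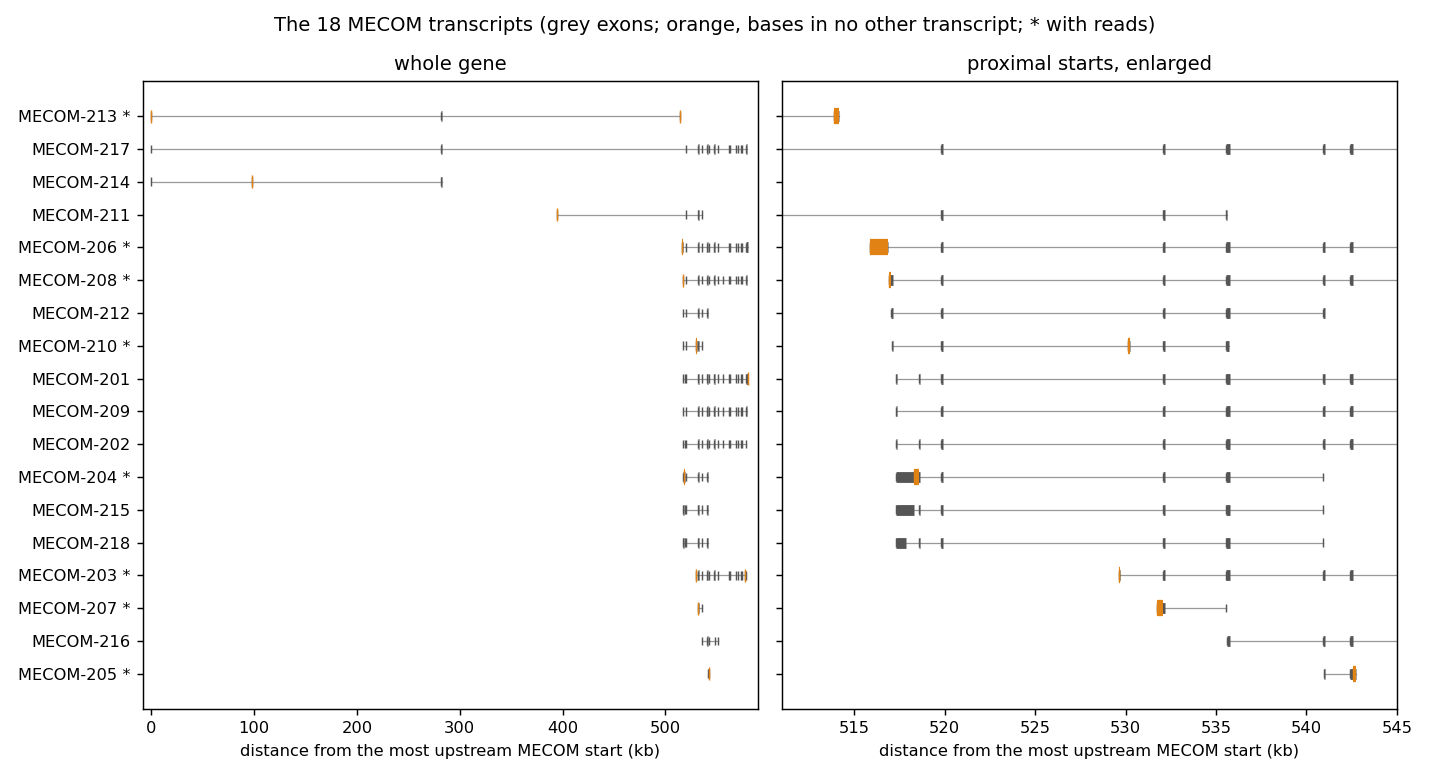
Exons (grey; introns are thin lines) of the 18 listed MECOM transcripts by distance from the most distal start in kb, over the whole gene (left) and enlarged at the proximal starts (right); bases that no other listed MECOM transcript holds are orange, exons too narrow for the scale are drawn 1 line wide, and an asterisk marks the 8 transcripts with reads. MECOM-213, 217 and 214 begin at the distal start, and the largest orange block is the first exon of MECOM-206.

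DNA methylation in human cells lies mainly on the cytosine of CpG pairs, so stretches near the distal and proximal starts are shown with each CG in capitals. The whole first exon of MECOM-206, on which its value rests, and the bases before its start are not shown. The first is exon 3 of MECOM-213, at chr3:169149482-169149755 (GRCh38, minus strand), which holds 22 CpG in 274 bases and ends 1747 bases before the start of MECOM-206.
MECOM-213 exon 3: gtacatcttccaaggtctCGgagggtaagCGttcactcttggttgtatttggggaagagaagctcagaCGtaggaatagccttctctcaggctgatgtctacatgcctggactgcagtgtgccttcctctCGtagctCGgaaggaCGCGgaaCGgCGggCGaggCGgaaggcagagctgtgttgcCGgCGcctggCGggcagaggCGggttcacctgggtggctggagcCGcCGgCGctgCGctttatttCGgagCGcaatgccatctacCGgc
The next is the 250 bases before the distal start from RefSeq (GRCh38.p14), at chr3:169663713-169663962 on the minus strand, with 14 CpG and a GC content of 53.6%. That RefSeq start, at chr3:169663712, lies upstream of the start of MECOM-213.
distal promoter: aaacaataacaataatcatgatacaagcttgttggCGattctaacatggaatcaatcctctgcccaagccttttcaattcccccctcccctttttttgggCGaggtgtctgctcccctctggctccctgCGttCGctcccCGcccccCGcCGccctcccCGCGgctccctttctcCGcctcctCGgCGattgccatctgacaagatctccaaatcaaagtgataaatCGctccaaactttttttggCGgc
The last 30 bases before 2 proximal RefSeq starts are given at chr3:169147472-169147501 and chr3:169146540-169146569, minus strand. Both starts lie downstream of the start of MECOM-206, and the second is also the start of MECOM-210.
proximal promoter A: ttaaaagaggagccCGtctggcttcCGatc
proximal promoter B: cttatctaCGttgctaagcCGggCGatttc
The whole 250-base windows of proximal promoters A and B hold 8 and 14 CpG, and the window of proximal promoter A lies inside the first exon of MECOM-206. Over 35116 RefSeq promoters of the same length the median was 11 CpG, and 44.8% held at least as many as the distal promoter or proximal promoter B. The letters AGATAA, which factors of the erythroid master regulator family bind, were found 1 time in proximal promoter B and not in the other 2 windows, and 9.2% of all promoters hold them on either strand. The letters TGTGGT, a RUNX motif, were found 1 time in proximal promoter A and not in the other 2, against 11% of all promoters. No methylation was measured here, and a motif match only says that these letters are present.

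The libraries held 13148881 to 28281492 reads at 96 h and 15096909 to 28528757 at 144 h. Mitochondrial ribosomal RNA took 13.1% to 63.78% of them, and its share was higher with DAC in group mean in both lines at both times. Values below are scaled reads, which are reads divided by 1 size factor per library, each time point scaled separately. Of 13 myeloid and erythroid-megakaryocytic markers, 10 to 12 reached a group mean of 10 scaled reads in each group. MPO, the neutrophil enzyme, was at 0 in 5 of the 8 groups. The summed level of these markers was 20687.2 to 27273.8 in DAC-treated and 7228.0 to 8146.6 in untreated UCSD-AML1 at 96 h, and 22445.4 to 35204.7 and 7666.0 to 8201.7 at 144 h. In ELF-153 it was 7848.2 to 8977.1 with DAC and 4155.5 to 4704.6 without at 96 h, and 9179.7 to 11234.3 and 4511.5 to 4619.3 at 144 h. Of 11 matched markers of other cell types, MS4A1 (B cells) and EPCAM (epithelium) were at 0 in all 8 groups. Their sum was 2758.4 to 3518.4 in DAC-treated and 1221.9 to 1275.8 in untreated UCSD-AML1 at 96 h, mostly CDH5, an endothelial cadherin, and 228.5 to 323.0 over the ELF-153 libraries. The part of these markers in the MECOM results was not tested.

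In UCSD-AML1, the MECOM sum was high and fell with DAC at both times, to 0.462 times the untreated level at 96 h and to 0.35 times at 144 h in the fit. At 96 h the summed MECOM value was 1822, 2006 and 1723 scaled reads in the DAC-treated libraries, against 4086, 3993 and 3927 in the untreated ones. All 3 treated libraries lay below all 3 untreated ones. The means were 1850.3 ± 143.8 with DAC and 4002.1 ± 80.3 without (SD, n = 3 each), from 5411 and 13235 reads. The log2 change was −1.12 ± 0.37 (SE; limma on log2(value + 1) with 12 libraries, Benjamini-Hochberg adjusted p = 0.0282 over 18799 genes). With the same rule 39.2% of all tested genes were called in this comparison, and 19.6% of all tested genes were called lower. Whether fewer cells expressed MECOM or each cell held less of its RNA cannot be told apart in bulk RNA.

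At 144 h the sum was 1317, 1139 and 1172 scaled reads in DAC-treated UCSD-AML1, against 3699, 3493 and 3187 in untreated cells. The groups again did not overlap. The means were 1209.2 ± 94.5 and 3459.5 ± 257.4 scaled reads (SD, n = 3 each), from 3910 and 10498 reads, and the log2 change was −1.52 ± 0.24 (limma, Benjamini-Hochberg adjusted p = 0.000229). In this comparison 46.1% of all tested genes were called, and 26.2% of all tested genes were called lower. The DAC effect at 144 h minus that at 96 h was −0.40 ± 0.46 (limma over 24 libraries, Benjamini-Hochberg adjusted p = 0.809), a comparison that called 0.0956% of genes.

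The call at 96 h depended on the fit. Leaving out any 1 of the 6 UCSD-AML1 libraries gave adjusted p from 0.06 to 0.0787 in the 12-library fit, where both lines share 1 estimate of the spread, and 5.81e-06 to 0.000396 in a fit of the line's own libraries, always with a log2 change between −1.18 and −1.07. The share of mitochondrial ribosomal RNA was 62.85% ± 1.05 with DAC and 50.07% ± 1.06 without (SD, n = 3 each), and with this share as a covariate the log2 change was −1.98 (limma, adjusted p = 0.000183). The slope of this covariate was fitted over the 12 libraries of both lines. Treated libraries held 61.71% to 63.78% and untreated ones 49.33% to 51.28%, so share and DAC cannot be told apart within the line.

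In ELF-153, the MECOM sum was close to the detection limit in untreated cells and higher with DAC at 144 h. At 96 h there were 3, 3 and 3 MECOM reads in the DAC-treated libraries and 0, 3 and 2 in the untreated ones. The ranges met at 3 reads. The means were 2.80 ± 0.16 and 1.63 ± 1.55 scaled reads (SD, n = 3 each), and the read ratio was 1.66 (95% interval 0.498 to 6.29, covering counting error only). The log2 change was 0.75 ± 0.37 (limma, Benjamini-Hochberg adjusted p = 0.136), in a comparison where 32.7% of genes were called. It was −0.49 (adjusted p = 0.415) with the mitochondrial share as a covariate, which averaged 43.45% ± 6.25 with DAC and 25.16% ± 11.1 without. The shares of treated and untreated libraries did not overlap, so share and DAC cannot be told apart here either. Without untreated replicate 2 the log2 change was 1.18 (adjusted p = 0.0138), and without untreated replicate 1 it was 0.16 (adjusted p = 0.581).

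At 144 h ELF-153 had 14, 11 and 12 MECOM reads in the DAC-treated libraries, against 1, 0 and 0 in the untreated ones. Every treated library was above every untreated one. The sums were 37 reads and 1 read, a ratio of 37.8 with a wide interval of 6.37 to 1530 (95%, counting error only). In scaled reads the means were 12.02 ± 1.68 and 0.242 ± 0.419 (SD, n = 3 each). The log2 change was 3.43 ± 0.24 (limma, Benjamini-Hochberg adjusted p = 1.79e-07), where 38.4% of genes were called and 20.4% were called higher. The mitochondrial share averaged 46.99% ± 5.81 with DAC and 24.29% ± 12.07 without, and with it as a covariate the log2 change was 3.05 (adjusted p = 3.04e-06). These shares again did not overlap between treated and untreated libraries. The size of the log2 change depended on the processing. It was 1.28 to 5.11 over the alternatives other than fits without 1 library, and was called in each. The DAC effect at 144 h minus that at 96 h was 2.68 ± 0.46 (limma over 24 libraries, Benjamini-Hochberg adjusted p = 0.0222), a comparison that called 8 of 19881 genes (0.0402%). This call was kept in 6 of 12 fits that left out 1 library each, with adjusted p from 7.52e-06 to 0.0729.

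**Figure D2:**
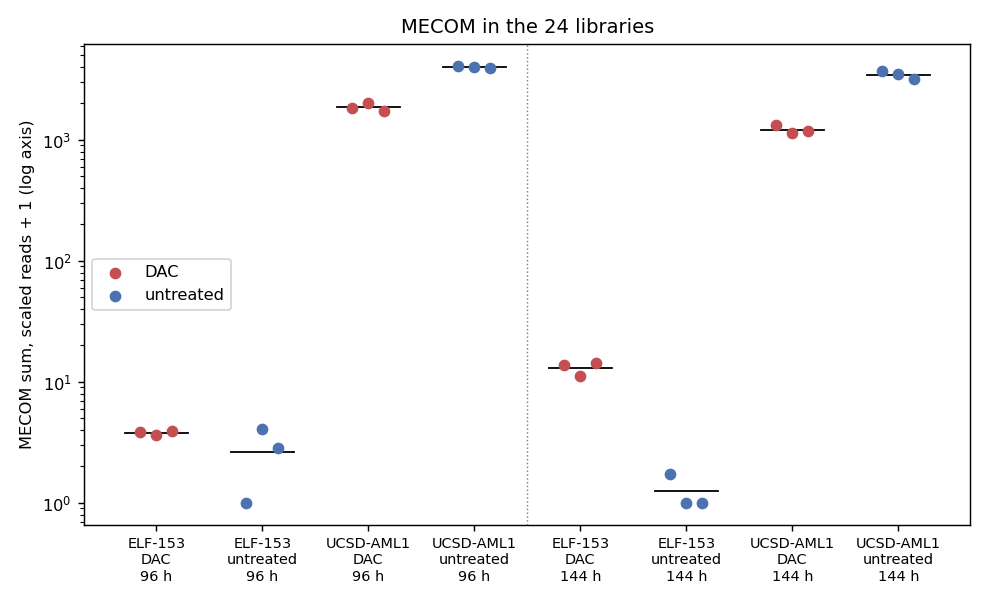
Summed MECOM level in each library (scaled reads plus 1, log axis) of ELF-153 and UCSD-AML1, DAC-treated (red) and untreated (blue), at 96 h (left) and 144 h (right); points are libraries and lines group means. The UCSD-AML1 libraries sit between 1139 and 4086 scaled reads with DAC below untreated, while the ELF-153 libraries sit at 13.2 or less and are separated by treatment at 144 h.

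In the MECOM sum the lines differed more than any treatment did. Untreated ELF-153 had 5 MECOM reads at 96 h, against 13235 in untreated UCSD-AML1, so that the ELF-153 sum was lower by a factor of 2370 (95% interval 1020 to 7300). The log2 difference was −10.79 (limma, Benjamini-Hochberg adjusted p = 3.33e-11), with 34.7% of genes called lower in ELF-153. At 144 h the untreated libraries held 1 read in ELF-153 and 10498 in UCSD-AML1, with a log2 difference of −11.49 (adjusted p = 3.51e-12) and 22.9% of genes called lower.

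Among DAC-treated cells the gap was narrower. It was −8.93 (adjusted p = 4.77e-10) at 96 h and −6.54 (adjusted p = 1.12e-09) at 144 h on the log2 scale, with 21.9% and 14.5% of genes called lower in ELF-153. In reads, treated ELF-153 was lower by a factor of 660 (348 to 1440) at 96 h and of 102 (73.5 to 144) at 144 h. The order of the 8 groups was untreated UCSD-AML1 at 96 h and 144 h, treated UCSD-AML1 at 96 h and 144 h, then treated ELF-153 at 144 h and 96 h and untreated ELF-153 at 96 h and 144 h. Levels at 96 h and 144 h come from tables scaled separately. Treated and untreated ELF-153 at 96 h, neighbours in that order, overlapped.

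The DAC effect on the MECOM sum differed between the lines. The DAC effect in ELF-153 minus that in UCSD-AML1 was 1.87 ± 0.52 at 96 h (limma, Benjamini-Hochberg adjusted p = 0.0203) and 4.95 ± 0.33 at 144 h (adjusted p = 9.51e-07). Of all genes, 16.4% and 19.4% were called higher in this comparison, and 8.62% and 10.2% lower. The count tests on recovered reads gave 1.62 to 1.65 at 96 h with adjusted p from 0.106 to 0.134, so the call at 96 h did not hold with them. At 144 h the alternatives, fits without 1 library aside, gave 2.79 to 6.40, and the call held in each.

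Most MECOM reads in UCSD-AML1 were those of MECOM-206, a transcript of the proximal starts. Of the 8 transcripts with reads, 7 passed the filter for testing (10 scaled reads in 3 of 12 libraries) at 96 h and 5 at 144 h. At 96 h MECOM-206 had 1689, 1853 and 1547 scaled reads with DAC, against 3852, 3721 and 3604 without. At 144 h it had 1231, 1051 and 1089 with DAC, against 3545, 3306 and 3070.3 without. The groups did not overlap at either time. The log2 changes were −1.14 ± 0.39 (limma over 33931 transcripts, Benjamini-Hochberg adjusted p = 0.0402) and −1.56 ± 0.30 (adjusted p = 0.00122 over 31517 transcripts). As for the sum, the call at 96 h was lost in the 12-library fit without any 1 library of the line (adjusted p 0.0834 to 0.111) and kept in the fit of the line's own libraries (4.92e-06 to 0.000566). Transcripts called at 96 h in UCSD-AML1 made up 27.8% of all tested, 13.4% lower and 14.4% higher, and at 144 h 36.2%, 18.3% lower and 17.9% higher.

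MECOM-206 had 28 reads in DAC-treated ELF-153 at 144 h, against 1 read in untreated cells. In scaled reads these were 9.14, 5.51 and 13.2 with DAC and 0.73, 0 and 0 without, so the groups did not overlap. The read ratio was 28.6 (4.72 to 1170) and the log2 change 3.03 ± 0.30 (limma, Benjamini-Hochberg adjusted p = 3.65e-06), where 15.9% of transcripts were called higher. At 96 h there were 6 and 4 reads of it in treated and untreated ELF-153 (log2 change 0.47 ± 0.39, adjusted p = 0.415). Its DAC effect in ELF-153 minus that in UCSD-AML1 was 1.61 ± 0.55 at 96 h (adjusted p = 0.063) and 4.58 ± 0.42 at 144 h (adjusted p = 1.21e-05), with 9.25% and 12.5% of transcripts called higher.

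The distal transcript MECOM-213 had more reads with DAC in UCSD-AML1. At 96 h it had 26.6, 24.7 and 22.3 scaled reads in DAC-treated libraries, against 2.10, 0.92 and 8.67 in untreated ones. At 144 h it had 12.6, 25.4 and 13.5 with DAC, against 0.88, 0.96 and 1.19 without. Every treated library was above every untreated one at both times, on 72 and 14 reads at 96 h and 56 and 3 reads at 144 h. The read ratio was 5.8 (95% interval 3.25 to 11.1) at 96 h and 17.5 (5.67 to 87.2) at 144 h. The log2 changes in the fit were 2.72 ± 0.57 and 3.11 ± 0.40 (SE). At both times MECOM-213 passed the filter through the treated libraries alone, so these values are a description and no p is given for them.

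In ELF-153 MECOM-213 had 1 read in 1 untreated library at 96 h and 0 in the other 11 libraries. Exon 3, whose letters are printed above, holds most of its unshared bases. The values give no position within a transcript, so they do not show whether its reads came from exon 3 or the first exon. Use of the distal start was thus not measured.

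**Figure D3:**
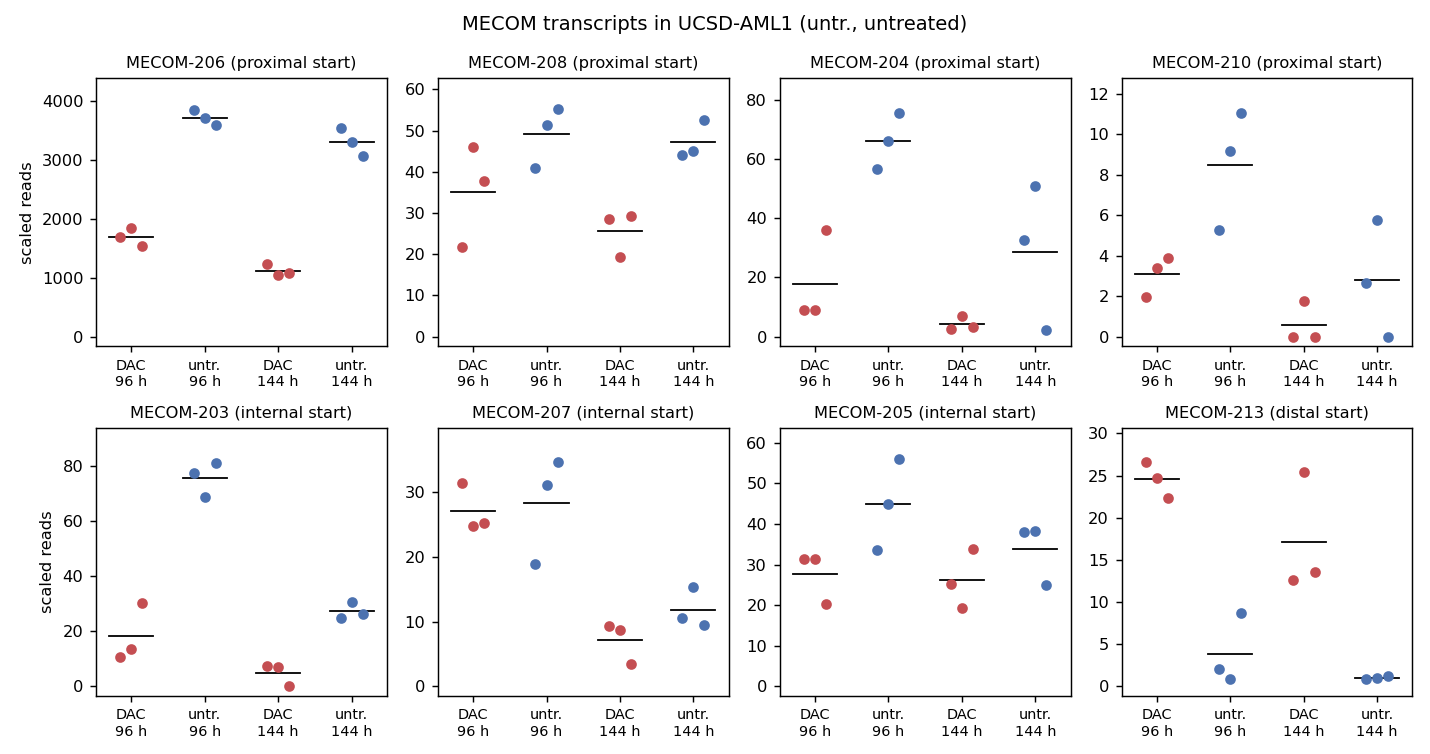
Scaled reads (linear axes from 0, a different range in each panel) of the 8 MECOM transcripts with reads in the UCSD-AML1 libraries, DAC-treated (red) and untreated (blue), at 96 h and 144 h; points are libraries and lines group means. MECOM-206 reaches 3852 scaled reads and is lower with DAC, while MECOM-213 stays at 26.6 or less and its treated libraries lie above its untreated ones.

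Of the remaining proximal transcripts, MECOM-204, a short protein-coding form, fell at 96 h. It had 8.85, 8.99 and 35.9 scaled reads with DAC, against 56.6, 66.0 and 75.7 without, and the groups did not overlap (log2 change −2.12 ± 0.55, limma, Benjamini-Hochberg adjusted p = 0.00952). Only 1 of its treated libraries reached the 10 scaled reads of the filter. The call was lost without treated replicate 1 (−1.79, adjusted p = 0.0509) and kept in the other 5 fits that left out 1 library, and without treated replicate 3 the change was −2.75 (adjusted p = 0.00134). At 144 h it was under the filter, with 14 reads in treated and 92 in untreated cells, and its untreated libraries ranged from 2.39 to 50.8 scaled reads. MECOM-208 had 21.6, 46.1 and 37.9 scaled reads with DAC and 40.9, 51.3 and 55.2 without at 96 h, which overlapped (−0.52 ± 0.46, adjusted p = 0.432). At 144 h MECOM-208 had 28.6, 19.2 and 29.3 with DAC and 44.2, 45.1 and 52.5 without, which did not overlap, though the change missed the threshold (−0.87 ± 0.43, adjusted p = 0.13). It passed in 2 of 9 alternatives, with a pseudocount of 8 (−0.72, adjusted p = 0.0193) and in the fit of the line's own libraries (adjusted p = 0.038). MECOM-210 was under the filter at both times, with 9 and 29 reads in treated and untreated cells at 96 h and 2 and 9 at 144 h.

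Among the internal starts, MECOM-203 fell at 96 h and had fewer reads with DAC at 144 h as well. It had 10.8, 13.5 and 30.1 scaled reads with DAC and 77.6, 68.7 and 81.2 without at 96 h, and 7.56, 7 and 0 with DAC and 24.8, 30.7 and 26.2 without at 144 h. No treated library reached an untreated one. The log2 change at 96 h was −2.13 ± 0.49 (limma, Benjamini-Hochberg adjusted p = 0.0044). At 144 h it was −2.78 ± 0.66, with no p given because MECOM-203 then passed the filter through the untreated libraries alone. Its 112 unshared bases are split between its first exon (59) and exon 14 (53). In ELF-153 MECOM-203 had no reads in these libraries. Its line difference in DAC effect is thus the UCSD-AML1 change with the sign turned, and no p is given for it.

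MECOM-205, a retained-intron form, and MECOM-207 did not pass the test in UCSD-AML1. MECOM-205 had 31.5, 31.5 and 20.4 scaled reads with DAC and 33.6, 44.9 and 56.0 without at 96 h (−0.67 ± 0.51, adjusted p = 0.354), and 25.2, 19.2 and 33.8 with DAC and 38.0, 38.4 and 25.05 without at 144 h (−0.37 ± 0.59, adjusted p = 0.656). The groups overlapped at 144 h but not at 96 h. MECOM-207 had 31.5, 24.7 and 25.3 scaled reads with DAC and 18.9, 31.2 and 34.7 without at 96 h (−0.02 ± 0.46, adjusted p = 0.987), and at 144 h it was under the filter. MECOM-205 was also seen in ELF-153, with 3, 5 and 0 reads in the treated libraries and 0 in each untreated one at 144 h. The groups met at 0, and the exact 95% lower limit of the read ratio was 1.74 (counting error only). The log2 change was 1.46 ± 0.59 (limma, adjusted p = 0.0796), and 2.19 (adjusted p = 0.00688) without treated replicate 3. The count tests called that change (edgeR adjusted p 0.0278 and 0.0304, DESeq2 0.0213).

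**Figure D4:**
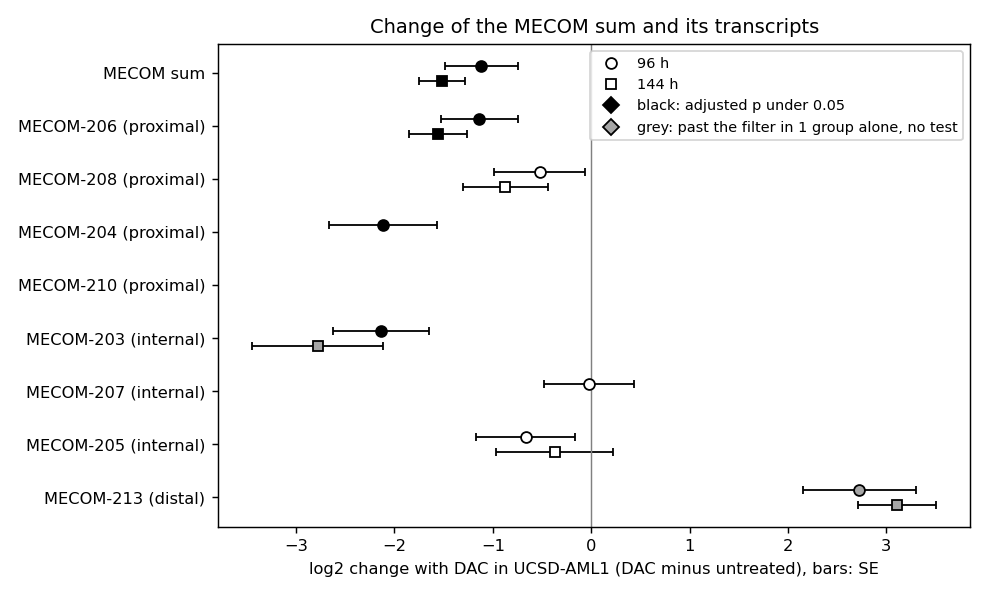
Log2 change with DAC in UCSD-AML1 (limma, bars are SE) of the MECOM sum and of each transcript that passed the filter, at 96 h (circles) and 144 h (squares), black where the adjusted p was under 0.05 and grey, with no test, where a transcript passed the filter through 1 group alone. The black points of the sum and of MECOM-203, 204 and 206 lie below 0, and the grey points are MECOM-213 above 0 and MECOM-203 at 144 h below 0.

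Per base of unshared sequence, and among the 8 transcripts with reads only, MECOM-206 was the most abundant in UCSD-AML1. In UCSD-AML1 at 96 h it averaged 1676 ± 151 scaled reads per unshared kb with DAC and 3681 ± 122 without (SD, n = 3 each). MECOM-203 averaged 162 ± 93.3 and 677 ± 57.2, and MECOM-208 averaged 329 ± 116 and 459 ± 69.1. MECOM-213 averaged 58.2 ± 5.01 with DAC and 9.23 ± 9.9 without at 96 h, and 40.7 ± 16.9 and 2.40 ± 0.38 at 144 h. It remained well under the level of MECOM-206 in treated cells. MECOM transcripts without unshared bases have no such value and could not be ranked.

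As shares of all MECOM reads in UCSD-AML1, MECOM-213 held more and the transcripts of the proximal starts less in every DAC-treated library than in any untreated one. MECOM-213, the only distal transcript with reads, made up 1.329% ± 0.116 with DAC and 0.098% ± 0.107 without at 96 h, and 1.446% ± 0.684 and 0.029% ± 0.007 at 144 h (SD, n = 3 each). The proximal starts together made up 94.698% ± 0.525 and 96.174% ± 0.699 at 96 h, and 95.41% ± 0.621 and 97.868% ± 0.271 at 144 h. Because the groups did not overlap, the exact two-sided permutation p was 0.1 for each of these differences, the smallest that 3 against 3 allows. It adds nothing to that separation, and as shares of the same total these differences are not independent. The internal starts made up 3.973% ± 0.467 and 3.728% ± 0.604 at 96 h (p = 0.7), and 3.144% ± 0.064 and 2.103% ± 0.274 at 144 h (exact permutation p = 0.1). These are shares of reads on unshared bases, whose length differs between transcripts, not shares of molecules.

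Genes related to MECOM were then read from 6 lists of 97 genes. Over all genes the median log2 change with DAC was −0.02 in UCSD-AML1 and 0.16 in ELF-153 at 96 h, and −0.12 and 0.11 at 144 h. A TMM rescaling moved the UCSD-AML1 medians by 0.12 and 0.17 and those of ELF-153 by −0.05 and −0.02. The shares of genes called higher and lower, against which the counts below stand, were 19.7% and 19.6% in UCSD-AML1 and 20.1% and 12.7% in ELF-153 at 96 h, and 20.0% and 26.2% in UCSD-AML1 and 20.4% and 18% in ELF-153 at 144 h.

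Of 15 PRDM paralogs, 7 were tested. PRDM1, the repressor also called Blimp-1, had higher means with DAC in both lines at both times. It averaged 14.3 ± 6.41 scaled reads with DAC and 4.15 ± 0.875 without in UCSD-AML1 at 96 h (log2 change 1.5 ± 0.45). In ELF-153 at 144 h it averaged 33.3 ± 0.592 and 8.26 ± 3.10 (1.94 ± 0.36). No p is given because PRDM1 passed the filter mostly through treated libraries, and its untreated UCSD-AML1 libraries reached 4.77 scaled reads at most. PRDM4 rose in UCSD-AML1 at 144 h (0.70 ± 0.25, limma, Benjamini-Hochberg adjusted p = 0.0365), with 397.9 ± 89.2 scaled reads with DAC and 241.1 ± 4.41 without. PRDM11 averaged 321.6 ± 14.5 with DAC and 282.9 ± 36.8 without in UCSD-AML1 at 96 h, and its change did not pass the test in any of the 4 comparisons (adjusted p from 0.0811 to 0.508). PRDM12, a paralog of developing neurons, had 2.15 ± 2.25 with DAC and 5.99 ± 0.648 without in UCSD-AML1 at 96 h (−1.46 ± 0.63, adjusted p = 0.0817). The medians were 0.19 in UCSD-AML1 and 0.19 in ELF-153 at 96 h, and 0.22 and 0.25 at 144 h. PRDM16, the closest paralog of MECOM, was under the filter, with means of 0 to 4.34 scaled reads.

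Of 18 protein partners of EVI1, 17 were tested, and both directions were seen. In UCSD-AML1, 3 rose and 4 fell at 96 h, and 6 rose and 6 fell at 144 h (medians −0.17 and −0.32). In ELF-153, 2 rose and 5 fell at 96 h, and 5 rose and 6 fell at 144 h (medians 0.00 and 0.07). GATA1, the erythroid-megakaryocytic transcription factor, had the largest rises of the named partners. It averaged 1635 ± 154 with DAC and 399.5 ± 18.4 without in UCSD-AML1 at 96 h (2.03 ± 0.24, adjusted p = 1.84e-05), and 980.1 ± 113 and 32.5 ± 14.6 in ELF-153 (4.95 ± 0.24, adjusted p = 3.11e-09).

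SUV39H1, a histone H3 lysine methyltransferase, fell in all 4 comparisons. It averaged 108.6 ± 17.98 with DAC and 402.4 ± 27.8 without in UCSD-AML1 at 96 h (−1.89 ± 0.21, adjusted p = 1.02e-05), and 186.3 ± 17.6 and 992.4 ± 288 in ELF-153 (−2.37 ± 0.21, adjusted p = 1.23e-06). HDAC4, a histone deacetylase, fell in all 4 as well, by between 0.63 (adjusted p = 0.0382, UCSD-AML1 at 144 h) and 2.05 (adjusted p = 1.41e-05, ELF-153 at 144 h) on the log2 scale. EP300, an acetyltransferase, rose in UCSD-AML1 at both times (1.18 ± 0.23, adjusted p = 0.00108, and 1.47 ± 0.21, adjusted p = 0.000109) and in ELF-153 at 144 h (0.59 ± 0.21, adjusted p = 0.0391).

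The co-repressor CTBP2 fell in UCSD-AML1 at 96 h (−0.63 ± 0.16, adjusted p = 0.00754), with 267.7 ± 14 scaled reads with DAC and 415.6 ± 0.58 without. It also fell at 144 h in UCSD-AML1 (−0.81 ± 0.18, adjusted p = 0.00238) and in ELF-153 (−0.58 ± 0.18, adjusted p = 0.0185). CTBP1 rose in UCSD-AML1 at 144 h (0.72 ± 0.25, adjusted p = 0.0335), with 275.6 ± 16.9 and 172.4 ± 56.7 scaled reads, and in the other comparisons its adjusted p was 0.4 to 0.854.

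Of 13 genes reported as EVI1 targets, 9 were tested. In UCSD-AML1, 2 rose and 2 fell at 96 h, and 1 rose and 3 fell at 144 h (medians 0.04 and 0.12). In ELF-153, 4 rose and 2 fell at 96 h, and 3 rose and 1 fell at 144 h (medians 0.35 and 0.47). CEBPE, a granulocyte transcription factor, averaged 17.1 ± 4.53 with DAC and 39.2 ± 7.78 without in UCSD-AML1 at 96 h (−1.16 ± 0.26, adjusted p = 0.00265), and 352.4 ± 33.3 and 50.9 ± 9.08 in ELF-153 (2.78 ± 0.26, adjusted p = 1.95e-06). It thus fell in UCSD-AML1 and rose in ELF-153, where the MECOM sum was not called at 96 h, and a link to MECOM was not tested. ZFPM2, a GATA cofactor, rose in ELF-153 (1.90 ± 0.54, adjusted p = 0.0151 at 96 h, and 3.16 ± 0.47, adjusted p = 0.000152 at 144 h), and BCL2L1, an anti-apoptotic protein, rose in UCSD-AML1 at 96 h (0.88 ± 0.19, adjusted p = 0.00267).

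GATA2, which is a reported EVI1 target and the source of the enhancer in chromosome 3 rearrangements, did not pass the limma test in any of the 4 comparisons. It averaged 1227 ± 140 with DAC and 1192 ± 106 without in UCSD-AML1 at 96 h, and 1247 ± 104 and 1152 ± 149 at 144 h. In ELF-153 it averaged 2953 ± 101 and 2359 ± 223 at 96 h, and 2361 ± 220 and 2322 ± 253 at 144 h. The log2 changes lay between 0.03 and 0.33 with SE of 0.15 and adjusted p of 0.105 to 0.916.

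Of 13 stem cell genes known to be expressed with MECOM, 12 were tested at 96 h and 11 at 144 h. In UCSD-AML1, 5 rose and 1 fell at 96 h, and 4 rose and 3 fell at 144 h (medians 0.88 and −0.44). In ELF-153, 4 rose and 5 fell at 96 h, and 2 rose and 5 fell at 144 h (medians 0.48 and 0.34). CD34, the progenitor surface marker, fell in ELF-153 at both times (−0.85 ± 0.21, adjusted p = 0.0068, and −1.52 ± 0.21, adjusted p = 7.3e-05) and in UCSD-AML1 at 144 h (−1.02 ± 0.21, adjusted p = 0.00151). HOPX, a homeodomain protein of stem cells, fell in the same 3 comparisons, by 2.26, 2.67 and 1.58 on the log2 scale (adjusted p = 0.0075, 2.01e-05 and 0.00135). SPINK2, a protease inhibitor of immature cells, fell in ELF-153 (−2.29 ± 0.48, adjusted p = 0.0022 at 96 h, and −2.49 ± 0.38, adjusted p = 0.000204 at 144 h) and was nearly unread in UCSD-AML1. AVP, a marker of the most immature cells, averaged 12.9 ± 2.57 scaled reads in DAC-treated UCSD-AML1 at 96 h, while all untreated libraries of the line were at 0.

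HLF and MYCN were picked after their values were seen, so their values are given with no test. HLF, a stem cell transcription factor, averaged 26.01 ± 3.43 scaled reads with DAC and 165.1 ± 19.1 without in ELF-153 at 96 h, and 12.3 ± 5.45 and 3.32 ± 3.49 in UCSD-AML1. MYCN, a MYC family transcription factor, averaged 6062 ± 662 with DAC and 10926 ± 2971 without in ELF-153 at 96 h, and 4827 ± 521 and 2565 ± 194 in UCSD-AML1. Both had lower values with DAC in ELF-153 and higher means with DAC in UCSD-AML1, where the HLF groups overlapped.

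Of 20 genes around MECOM in band 3q26, 13 were tested. In ELF-153, 7 rose and 1 fell at 96 h, and 4 rose and 1 fell at 144 h (medians 0.81 and 0.63). In UCSD-AML1, 3 rose and 4 fell at both times (medians −0.09 and −0.05). The DAC effect in ELF-153 minus that in UCSD-AML1 was called higher for 5 of 13 at 96 h and 3 of 13 at 144 h, against 16.4% and 19.4% of all genes. SKIL, a SMAD co-repressor, averaged 194.6 ± 77.3 with DAC and 25.7 ± 1.77 without in ELF-153 at 96 h (2.80 ± 0.26, adjusted p = 2.04e-06), and 369.0 ± 81.8 and 147.0 ± 3.98 in UCSD-AML1 (1.30 ± 0.26, adjusted p = 0.00136).

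Near MECOM, ACTRT3, an actin-related protein gene, rose in ELF-153 (2.14 ± 0.37, adjusted p = 0.000552 at 96 h, and 1.51 ± 0.24, adjusted p = 0.000261 at 144 h) and had log2 changes of −0.09 and −0.05 in UCSD-AML1. MYNN, a zinc-finger gene close by, did not pass the test in any of the 4 comparisons (adjusted p from 0.142 to 0.939). GPR160, an orphan receptor gene, fell in UCSD-AML1 (−2.01 ± 0.42, adjusted p = 0.00189, and −2.59 ± 0.31, adjusted p = 2.97e-05). LRRC34 had lower means with DAC at 96 h in ELF-153 (log2 change −1.43 ± 0.43) and in UCSD-AML1 (−2.69 ± 0.43). Its treated libraries at 96 h reached at most 12.2 scaled reads in ELF-153 and 6.89 in UCSD-AML1. At 144 h it averaged 0.609 ± 1.055 scaled reads with DAC and 17.99 ± 4.32 without in ELF-153. In UCSD-AML1 it then averaged 1.75 ± 3.03 and 24.9 ± 18.2. No p is given for LRRC34 because it passed the filter through untreated libraries, and at 144 h through these alone. The counts above include it.

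**Figure D5:**
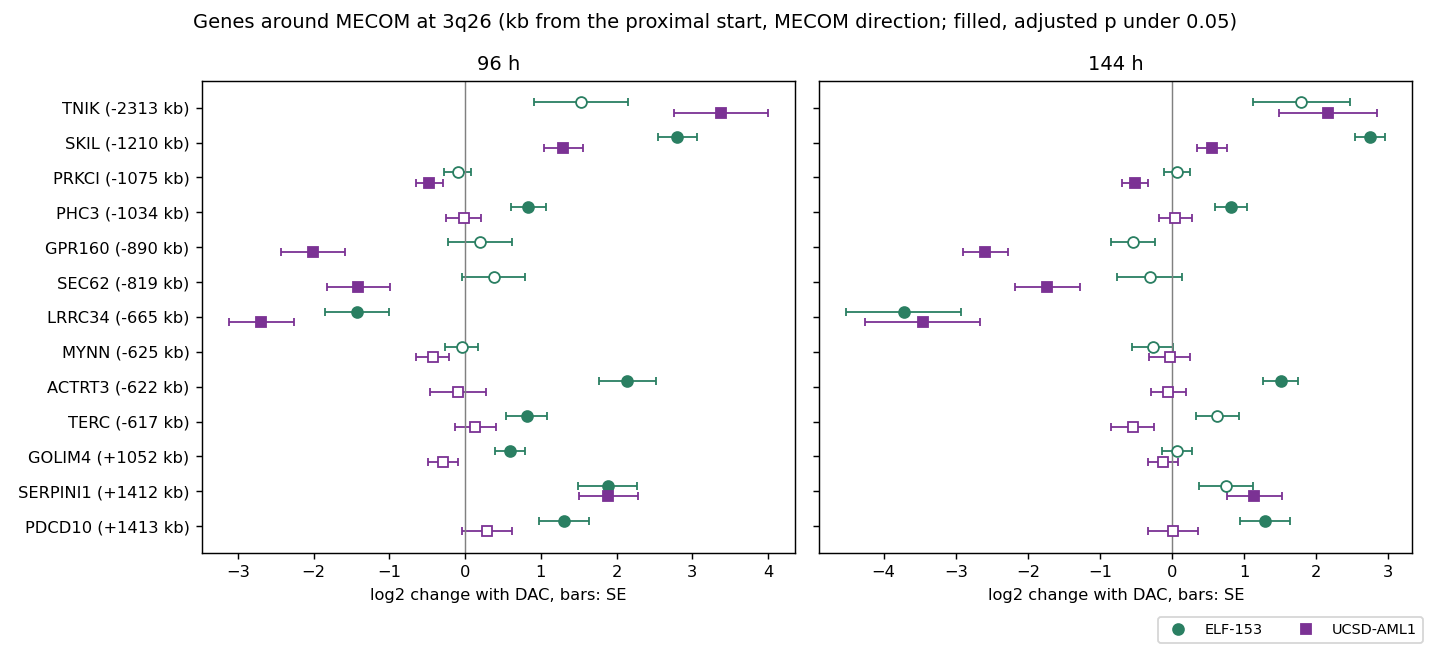
Log2 change with DAC (limma, bars are SE) of the 13 tested genes around MECOM in ELF-153 (circles) and UCSD-AML1 (squares) at 96 h and 144 h, ordered by distance from the proximal MECOM start in kb (negative before the start in the direction of MECOM transcription), filled where the adjusted p was under 0.05. Filled points of both signs lie before MECOM, and in ELF-153 7 of the 13 genes rose at 96 h. LRRC34 is filled throughout, but no test is read from its points because it passed the filter through untreated libraries.

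Of the 19 genes around GATA2 in band 3q21, GATA2 included, 17 were tested. In UCSD-AML1, 5 rose and 6 fell at 96 h, and 4 rose and 4 fell at 144 h (medians −0.35 and −0.10). In ELF-153, 2 rose and 3 fell at 96 h, and 3 rose and 6 fell at 144 h (medians −0.02 and −0.18). MCM2, a replication helicase subunit, fell most of the named ones. It averaged 199.6 ± 27.6 with DAC and 1536 ± 68.9 without in UCSD-AML1 at 96 h (−2.95 ± 0.16, adjusted p = 2.14e-08), and it fell by 1.64 in ELF-153 (adjusted p = 3.62e-06). LINC01565, a long non-coding RNA, averaged 1039.7 ± 105 with DAC and 112.1 ± 21.9 without in UCSD-AML1 at 96 h (3.21 ± 0.25, adjusted p = 4.7e-07), and it rose in ELF-153 (1.09 ± 0.25, adjusted p = 0.0045). PODXL2, a sialomucin, fell in all 4 comparisons by 1.14 to 1.86 (adjusted p from 1.83e-05 to 0.00039), and MGLL, a monoacylglycerol lipase, rose in UCSD-AML1 at 96 h (2.12 ± 0.46, adjusted p = 0.00263).

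The genes most like the MECOM sum were found by the Pearson correlation of log2(value + 1) over the 12 libraries of each table, among 16782 genes. They were B3GNT3, a glycosyltransferase (r = 0.9908 at 96 h and 0.9964 at 144 h), ENPP2, the enzyme autotaxin (0.9867 and 0.9935), EPHA2, an ephrin receptor (0.9888 and 0.9852), MYO7A, a myosin (0.9843 and 0.9864), and CD300LG (0.9837 and 0.9893). The most opposite were GCHFR (−0.9912 and −0.9922), RRAGD, a GTPase of amino acid sensing (−0.9921 and −0.9905), PSAT1, an enzyme of serine synthesis (−0.9936 and −0.989), its pseudogene PSAT1P1, whose reads may be shared with PSAT1, and AC020928.1. The 12 points are 2 lines with technical triplicates, so these values mostly describe the line difference.

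Within the lines the likeness was partial. ENPP2 averaged 159.4 ± 17.7 with DAC and 301.0 ± 22.2 without in UCSD-AML1 at 144 h (−0.92 ± 0.35, adjusted p = 0.0466), and 6.29 ± 3.15 with DAC in ELF-153, where all untreated libraries were at 0. MYO7A fell in UCSD-AML1 (−1.54 ± 0.40, adjusted p = 0.00817 at 96 h, and −1.69 ± 0.39, adjusted p = 0.00345 at 144 h). EPHA2 did not pass the test in UCSD-AML1, with 188.7 ± 50.8 and 165.3 ± 15.7 at 96 h (0.15 ± 0.31, adjusted p = 0.731).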

How the data were processed

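RNA of 2 AML cell lines was sequenced as 24 rRNA-depleted, strand-specific libraries, per the labels' protocols. Per the submitters' processing notes, hg19, STAR, TopHat2, HTSeq, FastQC and DESeq2 were used, with no version or role stated. The deposited tables, 1 per time point, hold a signal per transcript, which the authors scaled by library: 100% of values were whole multiples of 1 step per library (tolerance 0.01), from 0.726 to 1.193, so whole reads were recovered from the values. The counting rule is not stated in these sources.

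Transcripts were matched by identifier to GENCODE 29 (181859 of 204940, or 88.7%, holding 97.8% of the summed value) and summed per gene. The test was limma 3.58.1 (R 4.3.3; trend and robust options) on log2(value + 1) with a mean per group and all 12 libraries of 1 table, after a filter of 10 in at least 3 libraries, and Benjamini-Hochberg adjustment over all genes or all transcripts at 0.05. A fold change on this scale understates that of low transcripts. Time points were compared in a fit of all 24 libraries. Alternatives were edgeR 4.0.16 (quasi-likelihood) and DESeq2 1.42.0 on recovered reads, TMM scaling, pseudocounts of 0.5 and 8, a filter of 1, the mitochondrial rRNA share as a covariate, a replicate block, fits of 1 line's 6 libraries and leaving out each library. edgeR called 4358 genes higher and 2914 lower with DAC in UCSD-AML1 at 96 h, against 3697 and 3677 by limma, and 4435 and 3774 at 144 h, against 3654 and 4786. In ELF-153 it called 3506 and 2684 at 96 h, against 3773 and 2379, and 3517 and 3403 at 144 h, against 3735 and 3284. For the DAC effect in ELF-153 minus that in UCSD-AML1 it called 2062 higher and 1948 lower at 96 h, against 3085 and 1621 by limma, and 2131 and 2318 at 144 h, against 3548 and 1860. For untreated ELF-153 minus UCSD-AML1 it called 5566 and 5143 at 96 h, against 4295 and 6515, and 4471 and 4627 at 144 h, against 5283 and 4184. For the DAC-treated lines at 144 h it called 3432 and 3986, against 5427 and 2650.

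Data were also simulated from the 12 libraries of each time point, both lines together. They held no line difference, and 200 genes were lowered in DAC-treated UCSD-AML1 alone. There the test recovered 26% of 2-fold and 85% of 4-fold changes at 96 h (18799 genes) and 20% and 80% at 144 h (18293 genes). It called 0.023% and 0.058% of unchanged genes. The real libraries held line differences and many more changes, so these rates describe the simulated data only. Read ratios have exact 95% intervals that cover counting error only, and the ratios given above use no floor. With group counts under 3 reads raised to 3, the DAC ratios in ELF-153 at 144 h were 12.6 for the sum and 9.53 for MECOM-206. Libraries of the same replicate number were all correlated above 0.1 only in UCSD-AML1 at 144 h (0.17, 0.16 and 0.32). Libraries of unlike number reached 0.19 there, so a pairing was not shown. In the other sets at least 1 same-number pair was not correlated above 0.1. The members and the gene lists were chosen with earlier results of these data known. Named genes were MECOM and its transcripts, up to 4 tested genes of each list with the smallest adjusted p over the 4 DAC effects, GATA2, CTBP1, CTBP2, PRDM16 and MYNN, and the 5 genes most alike and the 5 most opposite to MECOM; HLF, MYCN and CDH5 fall outside this rule. Tables of transposable elements were not used here. Promoter sequences are RefSeq's (GRCh38.p14) and exon sequence and positions are from GENCODE 29 on GRCh38. Scripts used Python 3.11.15 with pandas 2.3.3, numpy 2.4.6, scipy 1.17.1 and matplotlib 3.10.9. Values of 1 gene among the reported EVI1 targets are not reported here, while the counts of that list include it.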

Additional observations from a re-analysis of the deposited data

Results flagged for a closer look

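The MECOM sum was marked because its DAC effect differed between the lines. The DAC effect in ELF-153 minus that in UCSD-AML1 was 1.87 (SE 0.52, limma, Benjamini-Hochberg adjusted p = 0.0203) at 96 h and 4.95 (SE 0.33, adjusted p = 9.51e-07) at 144 h. The difference of MECOM-206 at 144 h, 4.58 (SE 0.42, adjusted p = 1.21e-05), was marked for the same reason. In ELF-153 the DAC effect on the sum at 144 h minus that at 96 h was 2.68 (SE 0.46, adjusted p = 0.0222), a difference between times that rests on 37 and 9 reads in treated cells at 144 h and 96 h.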

How the results depend on the processing

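For the MECOM sum in UCSD-AML1 at 96 h, the log2 change was −0.97 (adjusted p = 0.0563) after TMM scaling and −1.12 (adjusted p = 0.0958) with a pseudocount of 0.5, neither past the threshold. Without 1 library at a time it was −1.18 to −1.07. In ELF-153 at 96 h it turned to −0.49 (adjusted p = 0.415) with the mitochondrial share as a covariate, and was 0.16 to 1.18 without 1 library. The DAC effect in ELF-153 minus that in UCSD-AML1 at 96 h was 1.62 (adjusted p = 0.106) by edgeR with TMM, 1.62 (0.108) with RLE and 1.65 (0.134) by DESeq2, and 1.28 to 2.29 without 1 library. The difference between times in ELF-153 was 3.17 (adjusted p = 0.111) with a pseudocount of 0.5 and 4.17 (0.508) by edgeR, and 2.26 to 3.27 without 1 library. The cause of these changes was not tested.

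Apart from fits without 1 library, the alternatives gave a change of 1.28 to 5.11 for ELF-153 at 144 h. The difference between lines in DAC effect was then 2.79 to 6.40, and the untreated line difference −13.37 to −8.72. Untreated ELF-153 held 1 read at 144 h, and these sizes varied with the processing, while direction and call did not. Without 1 library, the change at 144 h was −1.58 to −1.47 for UCSD-AML1, and for ELF-153 3.30 to 3.69, and the difference between lines in DAC effect at 144 h was 4.82 to 5.21. The line differences were −11.22 to −10.21 (untreated) and −8.98 to −8.87 (DAC) at 96 h, and −11.75 to −11.36 and −6.61 to −6.43 at 144 h. The UCSD-AML1 difference between times was −0.46 to −0.34. The DAC minus untreated difference in read share was 1.166 to 1.292 points for distal, −1.861 to −1.179 for proximal and −0.028 to 0.569 for internal starts at 96 h, and 1.026 to 1.661, −2.679 to −2.103 and 0.944 to 1.198 at 144 h. MECOM-207 in UCSD-AML1 at 96 h was 0.04 by edgeR with TMM, 0.0835 after TMM scaling and −0.28 to 0.147 without 1 library (0.0719, 0.042 and 0.0274 without untreated replicate 2 and treated replicates 2 and 3, also with the line's own libraries), and MECOM-206 in ELF-153 at 96 h was −0.0204 (without untreated replicate 1) to 0.99. MECOM-203 at 144 h and MECOM-213 fell under the filter whenever a library of their higher group was left out, so 3 of the 6 such fits gave a value. With the replicate block the changes of the sum were −1.12 (adjusted p = 0.0188) and −1.52 (0.00091) in UCSD-AML1 and 0.75 (0.0983) and 3.43 (1e-05) in ELF-153 at 96 h and 144 h; the block changed no MECOM call. Fits without 1 library aside, 117 values of the sum and the list counts kept direction and side of the threshold, 7 lost the call and 1 reversed, while of single transcripts 139 kept both, 2 lost the call, 5 gained it and 2 reversed. At 9 and 5 reads, ELF-153 values at 96 h are limited by depth.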
